A study of Sus scrofa and Bos taurus with 31 samples.

Results

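The regions described here are stretches of the pig genome that were accessible in all 3 brain tissues sampled (cerebellum, cerebral cortex and hypothalamus) and in none of the 5 other tissues (adipose, liver, lung, skeletal muscle and spleen). Accessibility was measured by ATAC-seq, which uses a transposase to insert sequencing adapters where nucleosomes leave the DNA free, and each of the 16 pig libraries (8 tissues of 2 animals) came with its own list of peaks. Peaks of the 16 lists that shared at least 1 bp were merged into 533944 regions, and 284109 of them had peaks of both animals in at least 1 tissue, which is then called open there. Of these, 2014 regions (0.709%) had a peak in all 6 brain libraries and were not open in any other tissue, and these are called brain-shared regions below. They made up 6.95% of the 28973 regions open in exactly 3 tissues. Because these regions were chosen by the presence of peaks, their number, width, peak folds and peaks elsewhere are given as a description, without a test.

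Both pigs, P348 and P350, were castrated male Yorkshire littermates, slaughtered as sexually mature adults at 6 months of age, so every group holds the same 2 animals. The labels name no treatment and no genetic change. The nuclei were prepared from whole tissue, frozen and thawed before transposition, so a peak gives no cell type, and the share of nuclei with an accessible site cannot be told apart from how accessible it is in each of them. With 2 littermates, the spread between replicates says little about other pigs. The lists held 99960 to 217308 peaks, and cerebellum had the longest. At the promoters of marker genes the tissue labels were borne out in part. A region within 2 kb of a transcription start site (TSS) was open for 6 of 6 skeletal muscle genes in skeletal muscle, 6 of 6 lymphocyte genes in spleen and 5 of 7 liver genes in liver, and for 1 of 7 liver genes in each brain tissue. These counts did not separate all tissues, since 5 of 6 skeletal muscle genes and 5 of 6 lymphocyte genes were open in liver too. Of the lung genes 3 of 5 were open in lung, and of the adipose genes 3 of 5 in adipose tissue, liver and lung alike. Promoters of oligodendrocyte genes were open for 11 of 12 in cerebral cortex and hypothalamus, 5 in cerebellum and 6 to 8 in the other tissues. Promoters of pan-neuronal genes did not separate the tissues: 8 of 10 were open in each brain tissue, and 7 or 8 of 10 in each of the 5 others. The lists for single brain tissues separated them poorly. Cerebral cortex genes were open for 4 of 5 in cortex and 3 in each other tissue. Cerebellum genes were open for 6 of 7 in cerebellum and in hypothalamus, 7 in lung and 2 to 5 elsewhere. Hypothalamus genes were open for 4 of 7 in hypothalamus, 6 in lung, 5 in cortex and in liver, and 3 or 4 elsewhere.

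Accessible DNA marks promoters, where transcription starts, and distal elements such as enhancers, which raise transcription of a gene from a distance and are often used in few cell types. Neurons and glia (astrocytes, oligodendrocytes and their precursors) are found throughout the brain, although the types of neuron differ greatly between cerebellum, cortex and hypothalamus. A region open in all 3 tissues but not elsewhere can therefore lie at an element used by cells that the tissues have in common, or be used by different cells in each.

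Sequences of 8 brain-shared regions are printed first, since the values below refer to them. The first 6 had the highest minimum fold enrichment over the 6 brain libraries among regions with no peak in any of the 10 other libraries, taking 1 region for each nearest gene. The other pair lay near internal start sites of MAP2, which encodes a microtubule-associated protein of neuronal dendrites. Each sequence is the central 300 bp of its region on the plus strand of Sscrofa11.1, 5′ to 3′, read from the RefSeq genome. They cover chr8:25645566-25645865 (nearest gene PCDH7), chr13:88215556-88215855 (ZIC1), chr13:141201095-141201394 (IGSF11), chr6:147086749-147087048 (DNAJC6), chr8:89112104-89112403 (PCDH18), chr1:49232700-49232999 (ADGRB3), and chr15:112306006-112306305 and chr15:112388337-112388636 (MAP2). Capitals mark matches, on either strand, to any of the short motifs searched below, here TTGGCA (NFI), TAATTA (homeodomain core), CAGCTG (palindromic E-box), ACAATGG (SOX) and GTTGCCAT (RFX).
PCDH7 region: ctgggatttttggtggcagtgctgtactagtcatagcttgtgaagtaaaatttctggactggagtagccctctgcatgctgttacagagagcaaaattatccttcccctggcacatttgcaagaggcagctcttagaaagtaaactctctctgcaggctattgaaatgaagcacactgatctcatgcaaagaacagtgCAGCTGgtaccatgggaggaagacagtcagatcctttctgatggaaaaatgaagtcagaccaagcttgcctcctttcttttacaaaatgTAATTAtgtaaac
ZIC1 region: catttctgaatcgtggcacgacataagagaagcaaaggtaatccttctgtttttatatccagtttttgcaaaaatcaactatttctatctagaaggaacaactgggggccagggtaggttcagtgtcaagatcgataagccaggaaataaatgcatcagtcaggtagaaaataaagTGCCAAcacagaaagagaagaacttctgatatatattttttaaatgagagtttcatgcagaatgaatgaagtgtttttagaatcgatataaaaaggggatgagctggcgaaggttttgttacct
IGSF11 region: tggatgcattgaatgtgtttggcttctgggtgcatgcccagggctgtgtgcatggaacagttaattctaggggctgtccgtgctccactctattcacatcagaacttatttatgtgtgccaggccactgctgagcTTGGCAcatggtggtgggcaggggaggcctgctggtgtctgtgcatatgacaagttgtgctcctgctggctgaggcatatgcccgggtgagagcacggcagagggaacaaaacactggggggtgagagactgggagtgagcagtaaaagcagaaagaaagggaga
DNAJC6 region: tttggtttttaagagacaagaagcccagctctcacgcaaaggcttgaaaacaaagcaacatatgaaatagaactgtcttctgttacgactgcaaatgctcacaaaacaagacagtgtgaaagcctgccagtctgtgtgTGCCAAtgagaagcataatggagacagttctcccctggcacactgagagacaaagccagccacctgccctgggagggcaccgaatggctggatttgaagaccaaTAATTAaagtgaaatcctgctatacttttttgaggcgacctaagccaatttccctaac
PCDH18 region: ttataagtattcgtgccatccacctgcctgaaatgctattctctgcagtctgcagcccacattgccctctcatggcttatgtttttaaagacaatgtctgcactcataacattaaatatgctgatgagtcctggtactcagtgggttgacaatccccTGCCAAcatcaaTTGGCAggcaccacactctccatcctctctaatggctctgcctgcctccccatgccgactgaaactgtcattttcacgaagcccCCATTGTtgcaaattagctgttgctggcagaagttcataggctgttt
ADGRB3 region: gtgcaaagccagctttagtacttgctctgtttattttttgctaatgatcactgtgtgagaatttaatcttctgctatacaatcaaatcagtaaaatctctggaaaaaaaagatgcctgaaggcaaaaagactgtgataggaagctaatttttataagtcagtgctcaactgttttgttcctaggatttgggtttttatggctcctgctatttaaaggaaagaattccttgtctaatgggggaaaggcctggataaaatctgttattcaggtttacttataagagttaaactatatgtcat
MAP2 first region: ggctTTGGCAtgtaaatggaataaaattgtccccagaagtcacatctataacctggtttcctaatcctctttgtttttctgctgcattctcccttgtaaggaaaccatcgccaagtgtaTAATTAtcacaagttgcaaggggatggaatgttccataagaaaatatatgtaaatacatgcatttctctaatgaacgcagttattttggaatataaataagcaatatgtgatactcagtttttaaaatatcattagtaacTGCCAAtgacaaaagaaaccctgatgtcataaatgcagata
MAP2 further region: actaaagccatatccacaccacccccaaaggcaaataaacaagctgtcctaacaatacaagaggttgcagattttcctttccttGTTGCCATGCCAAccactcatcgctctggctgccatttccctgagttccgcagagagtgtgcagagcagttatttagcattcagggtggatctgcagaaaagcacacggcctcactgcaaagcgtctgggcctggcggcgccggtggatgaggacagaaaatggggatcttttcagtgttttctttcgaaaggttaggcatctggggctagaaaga
The NFI motif was in 6 of these 8 windows, with 2 matches each in the PCDH18 window and in that of the first MAP2 region, and the NFI and RFX matches of the further MAP2 region overlapped. The ADGRB3 window held none of the motifs. The windows are centred on merged regions, not on peaks, and can miss the peak of a library. The first MAP2 region is centred 149.578 kb from the first TSS of the gene. Its window missed the P348 peaks in cerebral cortex (150.003 to 150.383 kb) and hypothalamus (150.072 to 150.365 kb). It also missed the internal start sites in that region.

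Among regions with no peak outside the brain, the one with the highest minimum fold lay in a gene desert, 2186028 bp from the TSS of PCDH7, which encodes a protocadherin, a cell adhesion protein of the cadherin superfamily. It was 427 bp wide, and its peak had a fold of 7.38 and 7.06 in the cerebellum of P348 and P350, 9.98 and 11.53 in cerebral cortex, and 6.96 and 8.76 in hypothalamus. The fold is the enrichment of signal over local background that the authors' peak caller gave, averaged over the peak, and the strongest peak stands for a region. A region of 809 bp, 474533 bp from the TSS of ZIC1, a zinc-finger transcription factor of the developing cerebellum, had folds of 6.40 and 7.65 in cerebellum, 6.36 and 8.75 in cortex and 10.71 and 10.33 in hypothalamus. The values were highest in hypothalamus, in both animals, and not in cerebellum. A region of 419 bp, 209024 bp from the TSS of PCDH18, another protocadherin gene, had folds from 5.67 to 8.79.

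The other regions named by this rule lay inside genes. An intronic region of IGSF11, which encodes an adhesion molecule of the immunoglobulin superfamily, was 501 bp wide, lay 52330 bp from a TSS and had folds of 7.40 and 9.33 in cerebellum, 6.61 and 6.95 in cortex and 7.14 and 6.26 in hypothalamus. An intronic region of DNAJC6, which encodes auxilin, a clathrin-uncoating factor of nerve terminals, lay 10250 bp from a TSS and had folds from 5.67 to 7.09. The region in ADGRB3, which encodes an adhesion G protein-coupled receptor found at synapses, overlapped an exon. Its folds were 5.48 and 7.52 in cerebellum, 9.20 and 9.01 in cortex and 13.65 and 12.11 in hypothalamus. The PCDH7, ZIC1 and ADGRB3 windows had a GC content of 43.0%, 36.7% and 34.3%.

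In the brain libraries the median fold at the 2014 regions was above that of all peaks, by more in cortex and hypothalamus than in cerebellum. These medians are not of like kind. A region needed a peak in all 6 libraries and is represented by its strongest peak, while the other median takes every single peak. The median fold was 2.91 and 3.23 in cerebellum (P348 and P350), against 2.76 and 2.92 over all peaks of the same libraries. It was 3.96 and 4.16 in cerebral cortex, against 3.29 and 3.21, and 3.69 and 3.87 in hypothalamus, against 3.30 and 3.04. Cerebral cortex had the highest mean fold of the 3 tissues at 954 regions (47.4%), hypothalamus at 763 (37.9%) and cerebellum at 297 (14.7%). Folds depend on the depth and background of a library, so this order describes these lists. The lowest of the 6 folds had a median of 2.72 and ran from 1.87 to 7.27. It was above 4 at 90 regions and above 5 at 17.

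Most of the regions had a peak of a single animal somewhere outside the brain. No other library had a peak at 523 regions (26.0%), while 1 library did at 589, 2 at 462, 3 at 312, 4 at 119 and 5 at 9. Both lung libraries had peaks at many of them, 19.1% in P348 and 30.8% in P350. Adipose tissue had peaks at 24.8% and 10.9%, liver at 7.55% and 22.1%, skeletal muscle at 11.2% and 1.84%, and spleen at 8.94% and 10.3%. The animals thus differed within adipose, liver, lung and skeletal muscle, and in each of these tissues the animal with the longer list had the higher share. In spleen, where the lists were of nearly equal length, P348 had the longer list and the lower share. The part of list length in these shares was not tested.

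**Figure D1:**
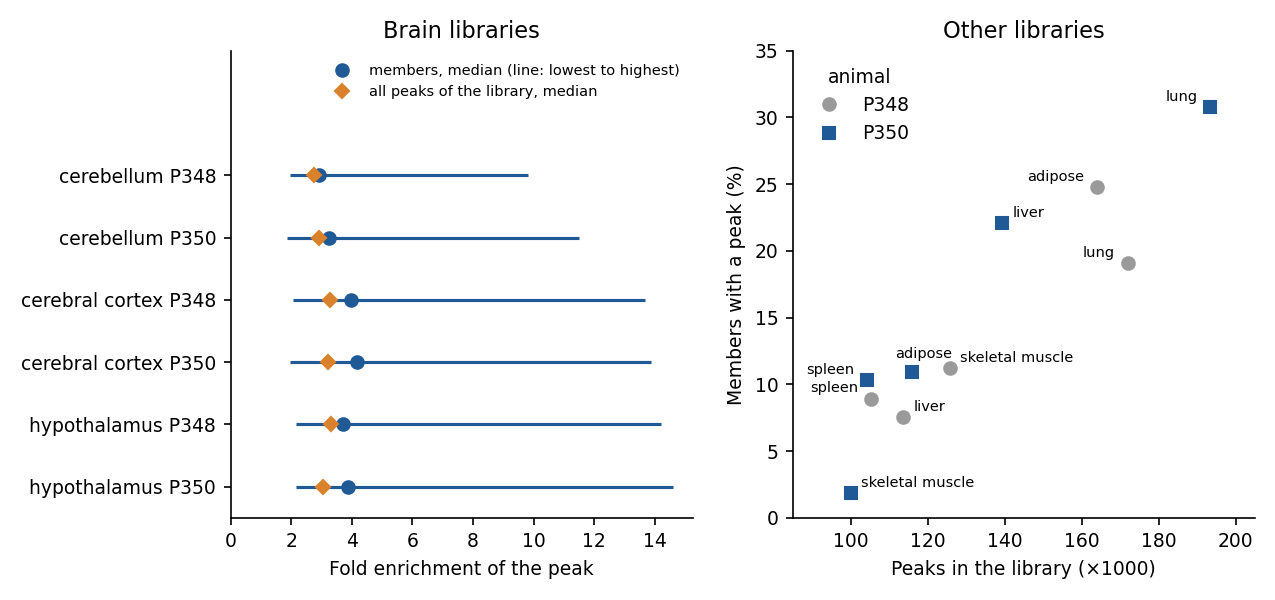
Left, fold enrichment of the peaks at the 2014 brain-shared regions in each brain library (circle, median; line, lowest to highest), with the median of all peaks of that library (diamond). Right, the share of the regions with a peak in each of the 10 other libraries (%) against the number of peaks in that library (in units of 1000), where lung of P350 has the longest list and the highest share, 30.8%, and skeletal muscle of P350 the shortest list and the lowest, 1.84%.

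Regions just outside the rule were more numerous than those inside it. In all, 4997 regions had a peak in 5 of the 6 brain libraries and were open in no other tissue, of which 1727 lacked the hypothalamus peak of P348, the shortest brain list, and 1065 the cerebellum peak of P348. A further 2860 regions were open in the 3 brain tissues and in 1 other tissue, 1372 of them in lung and 141 in spleen. Their lowest brain fold had a median of 2.68, against 2.64 for the 9 brain-shared regions with a peak of 1 animal in each of the 5 other tissues, and 2.84 for the 523 without any peak elsewhere.

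There are 56 ways to choose 3 of the 8 tissues, and the brain tissues gave the highest number of regions open in exactly those 3. They were followed by cerebellum, adipose and lung with 1866, by cerebellum, hypothalamus and lung with 1797, and by cerebellum, cerebral cortex and lung with 1542. Over the 55 other sets the median was 323 and the lowest number 14. When no library outside the set was allowed a peak, the 523 brain regions stood farther apart, followed by 299 for liver, lung and spleen. The first place did not hold under stricter peak limits: at q-values under 0.01 the brain set had 1193 regions and came second to liver, lung and spleen with 1356, and at q-values under 0.0001 it had 326 and ranked 8. With all lists cut to the shortest, it had 1096 and ranked 3, and when peaks had to cover 50% of a region it had 493 and ranked 4. Without P350 it had 2224 regions and ranked 3, behind cerebellum, adipose and lung with 3093, and without P348 it had 4368 and ranked 1.

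**Figure D2:**
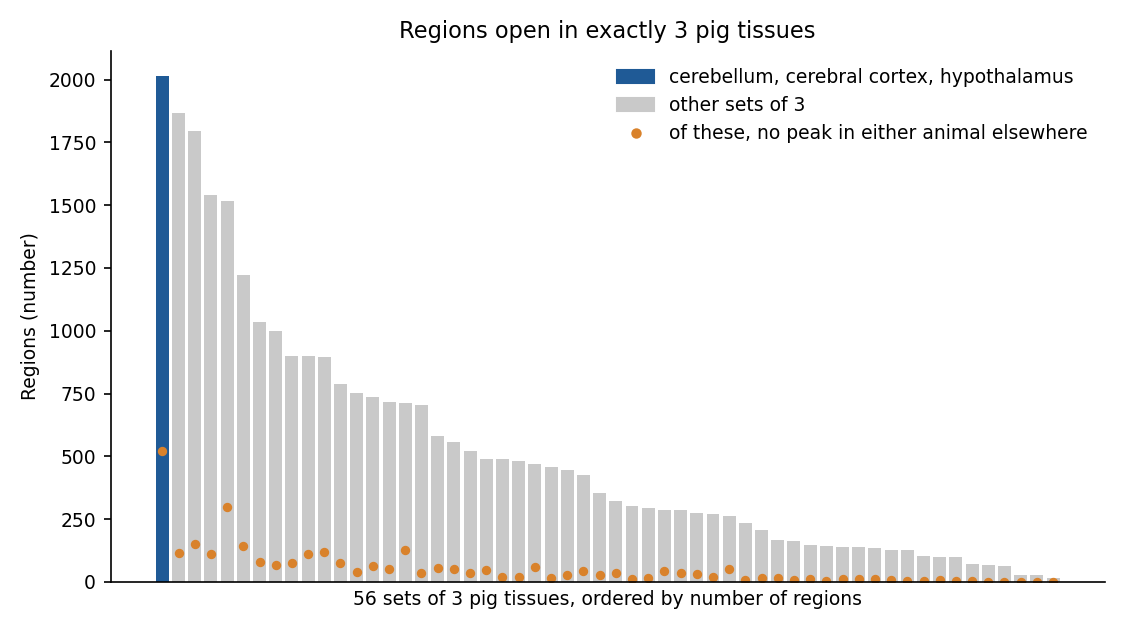
Number of pig regions open in exactly 3 tissues for each of the 56 sets of 3 tissues, in descending order (bars; the 3 brain tissues in blue), and the number of these with no peak of either animal in another tissue (dots). The brain set leads both, with 2014 and 523 regions, ahead of 1866 and 299.

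The brain-shared regions lay mostly far from promoters. Of the 2014, 996 (49.5%, 95% Wilson interval 47.3 to 51.6) were intergenic, 911 (45.2%, 43.1 to 47.4) overlapped a protein-coding gene away from its start sites, 80 (3.97%, 3.20 to 4.92) were at most 2 kb from the TSS of such a gene and 27 (1.34%) only near a non-coding one. The intervals cover counting error only. Of the 911 genic regions, 145 (15.9%, 13.7 to 18.4) overlapped an exon and the rest were intronic. Regions open in all 8 tissues had another makeup, with 62.1% within 2 kb of a coding TSS. The median distance to the nearest coding TSS was 100.04 kb, with quartiles of 32.3 and 239.0 kb, and 173 regions (8.61%) lay beyond 500 kb.

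The exact tests of TSS-proximal share, intergenic share and GC content did not set the brain set apart from other sets of 3 tissues. The TSS-proximal share of 3.97% compared with a median of 4.88% over the 55 other sets, which ranged from 0 to 14.5%, and 38 of them were above the brain set (exact permutation test over the 56 sets, two-sided, p = 0.554). The intergenic share of 49.5% compared with a median of 37.4% and a range of 16.1% to 68.9%, with 13 sets above (exact p = 0.482). The median GC content of the central 300 bp was 47.7% in the brain set, with quartiles of 42.3% and 52.7%, against a median of 51.0% and a range of 44.7% to 58.2%, with 48 sets above (exact p = 0.286). After Benjamini-Hochberg adjustment over the 3 tests, each p was 0.554, and the smallest p that 56 sets can give is 0.0179. The tests and ranges took in 6 sets with fewer than 100 regions, which widened the ranges. Over the 49 other sets of at least 100 regions, the TSS-proximal share ran from 2.11% to 8.75%. The intergenic share ran there from 22.7% to 68.9% and the median GC content from 44.7% to 57.3%. As a description, 5 of the 55 other sets had a longer median distance to a TSS, all 5 of them with cerebellum and a further brain tissue, and 53 had a higher share of genic regions on exons. Regions open in exactly 2 brain tissues and no other were similar. Their median distance was 98.33 kb and median GC content 47.0%, with 52.6% intergenic and 16.7% of genic regions on exons. For regions open in 1 brain tissue only, these values were 115.3 kb, 45.7%, 59.6% and 14.7%.

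**Figure D3:**
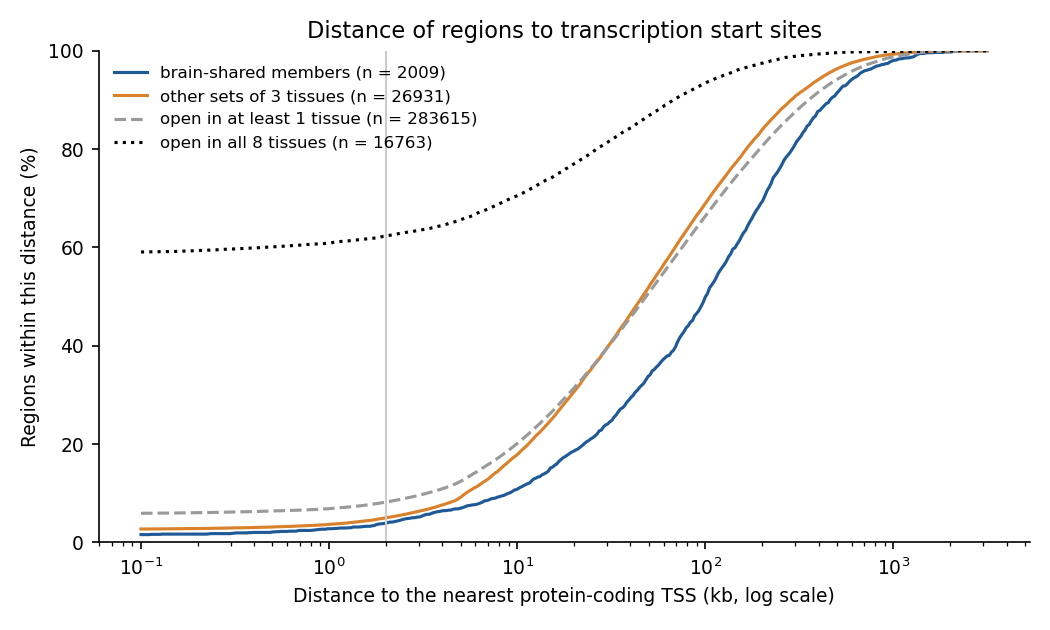
Cumulative share of regions (%) by distance to the nearest protein-coding TSS (kb, log axis) for brain-shared regions, regions of the other sets of 3 tissues, all open regions and regions open in all 8 tissues; the grey line marks 2 kb. Within 2 kb lie 3.97%, 5.00%, 8.19% and 62.1% of all regions of these kinds, and the median distances of the first 2 kinds are 100.04 and 46.4 kb.

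The regions had a median width of 1300.5 bp, with quartiles of 852.0 and 1904.75 bp and extremes of 219 and 4257 bp. All open regions had a median of 1157 bp, and the medians of the 55 other sets ran from 909 to 1929 bp, 46 of them above the brain set. The width is that of the merged region, and it exceeded what single libraries covered: the median length under peaks was 620.5 and 570.5 bp in cerebellum, 473.0 and 532.0 bp in cortex and 392.5 and 488.0 bp in hypothalamus (P348 and P350). The 523 regions without a peak elsewhere were narrower, with a median of 949 bp.

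The share of open regions that were brain-shared varied along the genome. It was highest on chromosome 16, with 110 regions or 1.16% of the open regions there, followed by chromosome 8 with 160 (0.997%) and chromosome 1 with 284 (0.896%). Chromosome 12 had the lowest share among the autosomes, 11 regions or 0.139%, followed by chromosome 3 with 73 (0.443%). The X chromosome held 30 regions (0.538%).

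Of the 80 regions near a coding TSS, 32 contained one, 26 had no peak in any other library, and their lowest brain fold had a median of 2.80 and ran from 2.1 to 4.69. For 47 of them a TSS within 2 kb was the first of the gene, and 33 (41.2%, 31.1 to 52.2) were near a later start site only. That share was 36.5% (34.0 to 39.1) among the 1348 promoter regions of the other sets of 3 and 9.81% (9.25 to 10.4) among the 10448 open in all 8 tissues. In 46 of the 80 cases the gene had another TSS more than 2 kb away. In all 46, such start sites were open in at least 1 other tissue, and in 37 they were open in all 5. No such share is given for the promoter regions of other sets. Many of these genes were thus accessible at a start site outside the brain as well, while the brain-shared region lay elsewhere in the gene.

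MAP2 was the clearest case and held 3 brain-shared regions. The first, of 1609 bp, contained internal start sites about 150 kb into the 306.4 kb gene, and its folds were 4.69 and 5.86 in cerebellum, 8.55 and 6.06 in cortex and 9.07 and 5.98 in hypothalamus. The only peaks outside the brain were in adipose tissue of P348 and lung of P350. The next, of 339 bp, lay 698 bp from a TSS, 231.9 kb into the gene, had folds of 5.88 and 6.70 in cerebellum, 7.35 and 7.47 in cortex and 4.39 and 8.39 in hypothalamus, and no peak in any other library. The third lay 233.7 kb into the gene, with a lowest fold of 4.05 and peaks of 1 animal each in liver and spleen. Start sites of MAP2 away from the first 2 regions were open in all 5 other tissues.

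**Figure D4:**
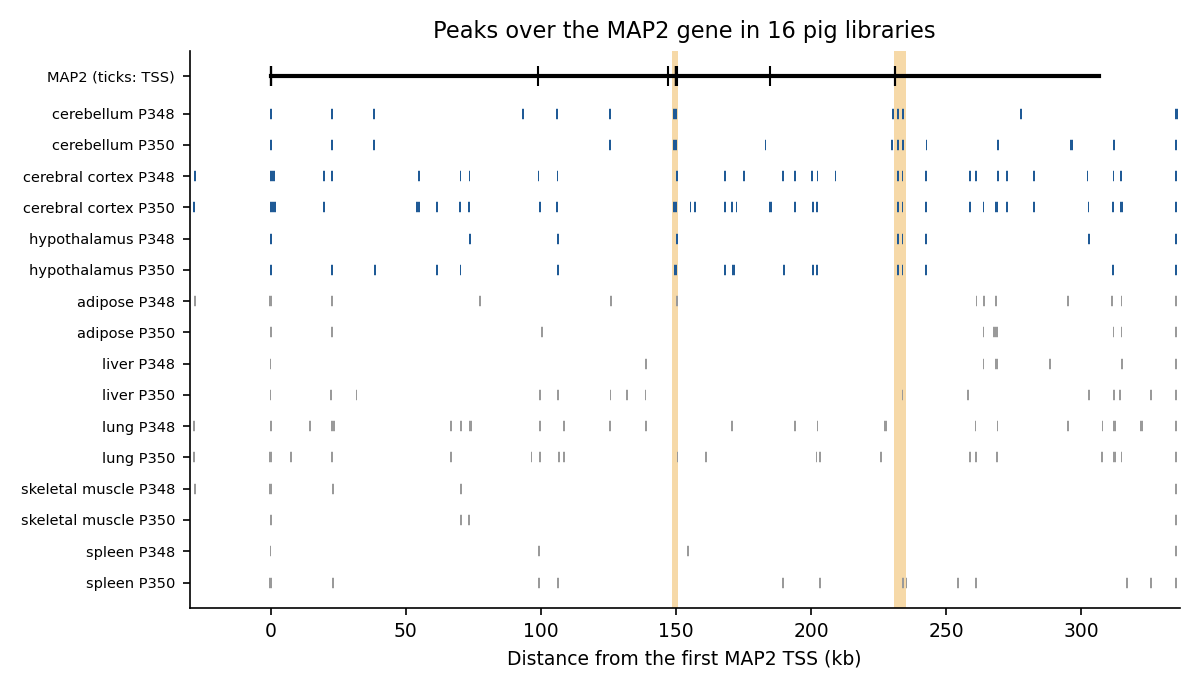
Peaks over the MAP2 gene and 30 kb on each side in the 6 brain libraries (blue) and the 10 other libraries (grey), by distance from the first MAP2 TSS (kb); peaks under 0.6 kb are drawn 0.6 kb wide. Ticks on the gene line are annotated start sites, and shaded bands, centred on the 3 brain-shared regions at 149.6, 231.9 and 233.7 kb, are wider than the regions.

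The other regions among the 10 promoter regions with the highest minimum folds belonged to genes of mixed function. CDH12, a cadherin gene, had a region of 1985 bp over an internal TSS, with folds of 4.78 and 5.46 in cerebellum, 4.50 and 7.86 in cortex and 6.41 and 7.56 in hypothalamus, and a peak in lung of P348. MAP7, which encodes a microtubule-associated protein, had a region 606 bp from an internal TSS, with folds from 4.29 to 8.66 and no peak elsewhere. Vesicle and signalling genes followed: RAB27B, a GTPase of vesicle secretion (folds from 3.48 to 7.52), and RGS8, a regulator of G protein signalling (3.39 to 5.99). Outside the brain, the RAB27B region had peaks in liver and lung of P350. The RGS8 region had them in adipose tissue and lung of P350 and in skeletal muscle of P348. The regions near NIPAL4, a magnesium transporter (4.30 to 9.22), NAALAD2, a peptidase (3.58 to 7.77), UPK2, a uroplakin of bladder lining (3.85 to 8.72), and C9H11orf53 (3.51 to 8.27) did not contain a TSS, and the nearest start site lay 389, 1927, 1951 and 1757 bp away. The NIPAL4 region had peaks in adipose tissue and skeletal muscle of P348 and in liver of P350. The C9H11orf53 region had a peak in liver of P350, and those near NAALAD2 and UPK2 had none elsewhere. Nearness does not show which gene such a region serves. A region 1778 bp from a TSS of AP1G2, singled out after its values were seen, overlapped an exon of JPH4, a junctophilin gene.

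Counted in genes with 10 kb on each side, 892 of 20674 protein-coding genes (4.31%) had at least 1 brain-shared region. Of these, 711 had 1 region, 133 had 2 and 48 had 3 or more, and 936 of the 2014 regions lay in no such window. The genes with a region were mostly long, and 304 of the 892 were under 100 kb. Genes with a region had a median length of 184.75 kb, against 19.2 kb for all, and the share with a region was 1.71% for genes under 100 kb, 13.4% from 100 to 300 kb and 41.7% above 300 kb. Among the open regions in those windows, the brain-shared ones were 0.300%, 0.661% and 1.05%, so the share rose with gene length also per open region.

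The genes with the highest counts were 3 genes with 7 regions each. DCC, the receptor for the axon guidance cue netrin, had 7 of 121 open regions (5.79%), all intronic, between 377.7 and 1272 kb from the start of the gene, and the lowest brain fold was highest, at 4.48, in the region at 650.7 kb. PTPRT, a receptor tyrosine phosphatase, had 7 of 156 (4.49%), and RBMS3, which encodes an RNA-binding protein, 7 of 172 (4.07%). In each of these genes 2 of the 7 had no peak in any other library. SLC35F1, of a solute carrier family, had 6 of 61 (9.84%), 4 of which lay within 56 kb.

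Among the genes with 5 regions, NTRK2, the receptor of the growth factor BDNF, had 5 of 68 open regions (7.35%), GRM8, a metabotropic glutamate receptor, 5 of 109 (4.59%), and LRRC4C, a netrin-G ligand of the postsynapse, 5 of 138 (3.62%), 3 of them without a peak elsewhere. TENM3 and TENM2, which encode teneurins, adhesion proteins of neuronal wiring, had 5 of 319 (1.57%) and 5 of 377 (1.33%), in genes of 2583.6 and 3459.9 kb. With 4 regions each, the remaining genes of the 15 were MCTP2 (4 of 43 open regions, 9.30%), GALNT10 (6.06%), which starts O-linked glycosylation, HS6ST3 (4.08%), which sulphates heparan chains, ELMO1 (3.92%), NELL1 (3.10%) and ASTN2 (2.94%), the last an astrotactin of neuronal migration. CSMD1, also with 4 (1.67% of its open regions), fell outside the 15 because ties were broken by fewer open regions. A region in an intron of ELMO1, which acts in Rac activation and cell engulfment, had a lowest brain fold of 6.33 and a peak in 1 library each of adipose, liver, lung and skeletal muscle. No gene had 8 or more. The order of these genes rested on the peak limits and on the animals used. At q-values under 0.01, SLC35F1 kept 6 regions and TENM3 had 6. DCC then had 3, PTPRT 2, RBMS3 1, and MCTP2 and HS6ST3 0. With lists of equal length, SLC35F1 had 4, DCC 3, PTPRT 3 and RBMS3 1. Without P348 or without P350, DCC had 6 and 5 regions, RBMS3 6 and 6, PTPRT 3 and 3, SLC35F1 3 and 4, and NTRK2 3 and 1, while LRRC4C had 15 and 4, TENM3 7 and 11, TENM2 11 and 8, and NELL1 11 and 4. Without P350, MCTP2 and ELMO1 had 0.

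Of the 24 gene lists examined, 13 had at least 1 gene with a brain-shared region, all of them lists of neuronal, glial or cortical genes. Each had a share of genes above the 4.31% of all genes. This was fixed by the size of the lists, since none had more than 18 annotated genes and 1 gene is then enough. The lists also differ widely in gene length, and that background is 1.71%, 13.4% and 41.7% in the 3 length classes above. The share of the open regions of a list that were brain-shared is therefore given beside its count and median gene length, against 0.565% over all protein-coding genes and 1.05% over those above 300 kb. Among synaptic and neuronal adhesion genes, 9 of 15 had one (median gene length 1001.8 kb), led by CSMD1 with 4 and by the neurexin genes NRXN2 and NRXN3 with 3 each. Their 16 regions were 0.979% of the open regions in these genes, slightly below the share of all genes above 300 kb. NRXN2 is 99.4 kb long and had 3 of 30 open regions (10.0%). Axon and cytoskeleton genes followed with 5 of 12 genes (median length 113.35 kb, 1.36% of open regions, TENM2 5 regions, ANK2 2). Postsynaptic genes had 3 of 10 (99.8 kb, 1.08%, DLG2 2 regions, DLGAP1 2, CAMK2A 1). Glutamate and GABA receptor genes had 5 of 17 (340.1 kb, 1.12%, GRM5 3 regions) and neuronal ion channel genes 5 of 17 (369.6 kb, 0.577%, 1 each, among them CACNA1A and KCNMA1). Both of the last lists had a region in 29.4% of their genes, and all of these genes were longer than 300 kb. The lists also hold short genes, such as GRIN1 (24.0 kb) and KCNC1 (45.7 kb). The 41.7% of all genes above 300 kb is therefore not a like background for this share. The CAMK2A region, at an internal TSS of this kinase of synaptic plasticity, had no peak in any other library.

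The other neuronal lists had 1 or 2 genes with a region. These were 2 of 8 neuronal RNA-binding protein genes (median length 160.7 kb, 0.743% of open regions, CELF3 2 regions and RBFOX1 1), 2 of 18 presynaptic release genes (76.4 kb, 0.946%, PCLO 2 and RIMS1 1), 1 of 10 pan-neuronal genes (17.25 kb, 3.75%, MAP2 3) and 1 of 12 neuronal transcription factor genes (6.75 kb, 0.292%, MYT1L 1). The transcription factor list was thus below the 0.565% of all genes per open region. CELF3 is 21.9 kb long and had 2 of 7 open regions. Glia were represented by 3 of 12 oligodendrocyte genes (12.35 kb, 2.63%, MBP, CLDN11 and OLIG2, 1 each), 2 of 4 genes of oligodendrocyte precursors (306.95 kb, 1.43%, PDGFRA and LHFPL3) and 1 of 10 astrocyte genes (13.9 kb, 0.546%, GJA1, which encodes connexin 43). No region fell in the lists for microglia (8 genes), endothelium (7), neurosecretory cells (8), cerebellum (7) or hypothalamus (7), nor in those for liver (7), skeletal muscle (6), lung (5), adipose (5), spleen and lymphocytes (6) or housekeeping (8). The genes of these lists without a region were mostly short, with median lengths from 4.4 to 55.7 kb. These lists also held few open regions, from 22 for adipose to 121 for endothelial genes. With so few, a count of 0 cannot be told apart from the 0.565% of all genes.

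Short motifs were counted in the central 300 bp windows, as exact matches on either strand. Each is set beside the regions of the other 55 sets of 3 tissues and all open regions. Because the windows are centred on merged regions, these shares and the GC contents can leave out the peak of a library. The SOX motif ACAATGG, recognised by a family that includes the glial regulator SOX10, was in 6.41% (5.42 to 7.56) of the brain-shared windows, 4.26% (4.03 to 4.51) of those of the other sets and 4.41% of all open windows. The POU octamer ATGCAAAT was in 2.38% (1.80 to 3.15) against 1.33% (1.2 to 1.47) and 1.51%, and the homeodomain core TAATTA in 8.69% (7.54 to 10.0) against 5.47% (5.21 to 5.75) and 6.21%. Among the 56 sets the brain set ranked 5 for SOX, 6 for POU and 4 for the homeodomain core. The NFI motif TTGGCA was in 21.4% (19.6 to 23.2) against 18.5% and 17.9%, and the RFX motif GTTGCCAT in 2.33% (1.76 to 3.09) against 1.56% and 1.83%. The E-box CAGATGG, bound by factors of the NEUROD, ATOH and OLIG families, was in 8.74% (7.58 to 10.1) against 7.82% and 7.46%, with overlapping intervals.

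Motifs rich in G and C, and the AP-1 motif, were less frequent than in the other sets. GGGCGG, bound by SP and KLF factors, was in 7.89% (6.80 to 9.15) against 12.8% in the other sets and 12.8% of all open windows, AGGGGGC, a core of the CTCF motif, in 5.06% (4.19 to 6.11) against 8.41% and 7.30%, and TGAGTCA, bound by AP-1, in 4.52% (3.69 to 5.52) against 6.55% and 6.34%. Base composition moved with these shares, since the brain-shared windows had a lower GC content (median 47.7%) than the pooled windows of the other sets (51.0%). Within windows of 45 to 50% GC (489 brain-shared, 5728 of the other sets), CTCF was at 4.29% (2.83 to 6.48) against 4.56% and SP and KLF at 4.50% against 4.91%, so these differences were not seen there. In the same windows SOX was at 7.77% (5.71 to 10.5) against 4.40% (3.90 to 4.96), POU at 3.48% (2.2 to 5.50) against 1.5% (1.22 to 1.85) and AP-1 at 3.89% (2.50 to 5.99) against 7.61% (6.95 to 8.33). The intervals of the homeodomain core overlapped there, at 8.38% (6.24 to 11.2) against 5.95% (5.37 to 6.60), as did those of NFI, at 22.9% (19.4 to 26.8) against 20.3% (19.3 to 21.4), and of RFX, at 2.86% (1.71 to 4.75) against 2.23% (1.88 to 2.65). The HNF1 motif GTTAATNAT, which can overlap TAATTA, was in 1.04% (0.683 to 1.59) of the brain-shared windows. It was in 0.679% of those of the other sets and 0.851% of all open windows. At 45 to 50% GC it was in 1.64% (0.831 to 3.19) against 0.524% (0.367 to 0.747) in the other sets. The ROR motif TAGGTCA was in 3.08% against 3.94%, and in 2.86% (1.71 to 4.75) against 5.43% (4.87 to 6.05) at that GC content. Over all windows, the motif of GATA factors (letters AGATAAG) was at 2.78% against 3.26%, SPI1 (GAGGAAGT) at 1.44% against 2.32% and the palindromic E-box CAGCTG at 21.4% against 22.8%. MEF2, CREB, EGR, NRF1, REST, ETS, HNF4 and CEBP motifs were each in under 0.5% of the brain-shared windows. A match is a description of the sequence and does not show that a factor was bound.

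**Figure D5:**
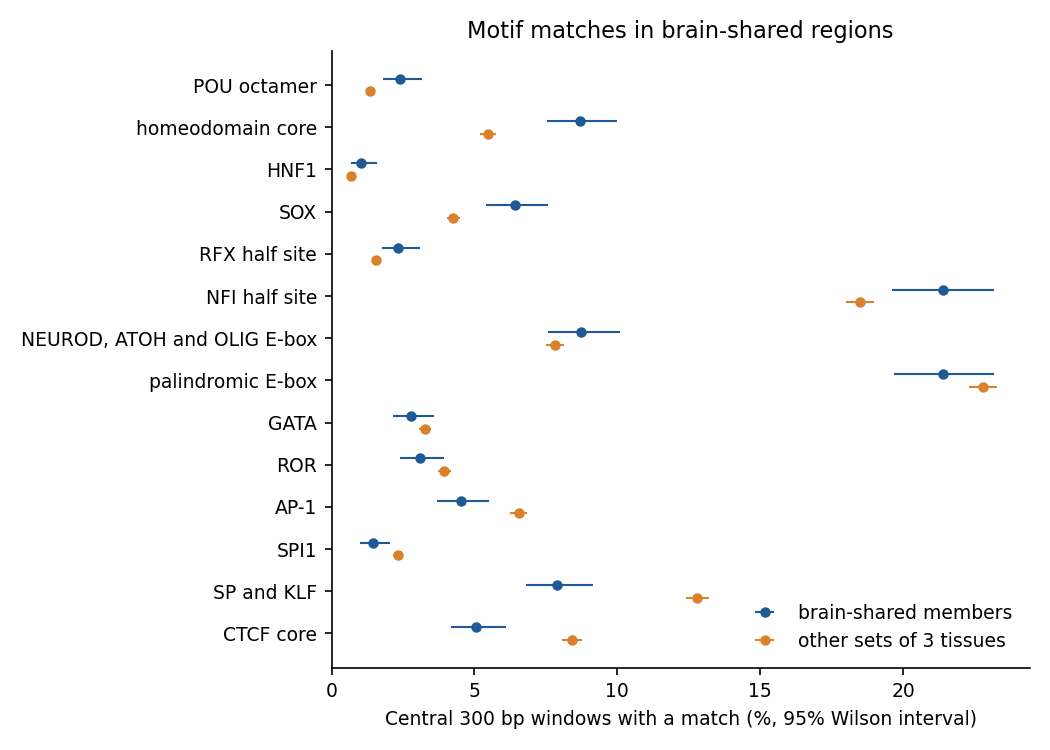
Share of central 300 bp windows (%) with at least 1 match to each motif that occurs in 1% or more of brain-shared windows, in the 2014 brain-shared regions (blue) and the 26959 regions of the other sets of 3 tissues (orange), with 95% Wilson intervals. SOX, POU and homeodomain motifs are higher in the brain-shared windows, and SP and KLF, CTCF and AP-1 motifs lower, but within windows of 45 to 50% GC the intervals overlap for the homeodomain, SP and KLF and CTCF motifs.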

How the data were processed

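Nuclei of 8 tissues from 2 pigs were profiled by ATAC-seq (16 libraries), and the 15 cattle lists of the series were not used. The submitters' processing notes name Trim Galore 0.4.5, BWA 0.7.17, SAMtools 1.10 and Picard 2.18.17, and the study's methods name MACS2 for calling broad peaks at q-values up to 0.05. Whether read ends were shifted for the transposase is not given in the sources used here. Libraries were size-selected for short fragments. Each deposited list belongs to a single library and gives, per peak, a score, a fold enrichment (the ratio of signal to local background), and a −log10 p-value and −log10 q-value. The score was not used. The depth behind the deposited values is unknown, and a deeper library can have more and weaker peaks.

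Samples were grouped by the tissue in their labels, and the animal name, which marks the same pig in every tissue, served as the replicate. Regions of the same animal in different tissues overlapped no more than those of different animals (mean shared fraction of regions 0.310 in each case). Peaks sharing at least 1 bp were merged over the 16 lists. RefSeq annotation release 106 of Sscrofa11.1, the build of the files, gave 20674 protein-coding genes. All 270 sequence names matched. A region within 2 kb of a coding TSS was TSS proximal, then near a non-coding TSS, genic or intergenic. The TSS-proximal share, the intergenic share and the median GC content of the central 300 bp were compared over the 56 choices of 3 tissues (exact permutation test, two-sided, p threshold 0.05), with Benjamini-Hochberg adjustment. All other values are descriptions.

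Named genes were the 15 with most regions within 10 kb (ties by fewer open regions), genes with the highest share of such regions among those with 8 or more (none), those of the 10 promoter regions with the highest minimum fold, and 2 to 4 genes per list with most regions. Unnamed loci were counted but not named. Some genes of the lists are not reported here by name. The regions, genes, lists and motifs were chosen with earlier results of these data known. The alternatives were other q-value limits, lists of equal length, merging within 500 bp, stricter closed tissues, autosomes only, a minimum cover of 50%, other TSS distances, whole regions for GC, other links to genes, and each animal alone. Motif shares at 45 to 50% GC were added after seeing the data. Python 3.11.15, numpy 2.4.6, pandas 2.3.3, scipy 1.17.1 and matplotlib 3.10.9 were used, and region building, place and the exact test were tested on simulated data.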

Additional observations from a re-analysis of the deposited data

How the results depend on the processing

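The exact tests of TSS-proximal share, intergenic share and GC content missed the threshold under every alternative, and the side of the mean was kept except for the TSS-proximal share with q-values under 0.0001 (18.4%) and lists of equal length (6.11%) and the intergenic share with q-values under 0.0001 (36.8%), which changed sides. The number of regions was 1193 at q-values under 0.01, 326 under 0.0001, 1096 with lists of equal length, 523 with no peak allowed in other tissues and 493 when peaks had to cover 50% of the region. Their median width was then 1130, 1049.5, 1131, 949 and 794 bp, and 1346 bp with merging within 500 bp. The regions in the 15 named genes, 76 in all, became 34, 10, 37, 21 and 11. Without either animal (P350 or P348) the number was 2224 to 4368, the median width 880 to 943.5 bp, the TSS-proximal share 3.24% to 3.64%, the intergenic share 48.7% to 54.6%, the median GC content 46.3% to 47.0% and the regions in named genes 59 to 86. With the animals as a replicate block (each on its own libraries, then averaged) the number was 3296, the median width 911.75 bp and GC content gave an exact permutation p of 0.0536 (adjusted 0.161), and no call changed. The cause of these moves was not tested. The lists give no depth, so the number of regions cannot be adjusted for it.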

Other observations

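Some brain-shared regions stood close together. They formed 13 groups of 3 or more with gaps of at most 50 kb, and 307 of the 2014 regions (15.2%) had another within 50 kb, while the median gap was 640.0 kb. The following groups were singled out after their values were seen. Around OLIG2, which encodes a transcription factor of the oligodendrocyte lineage, 4 regions lay within 60.4 kb, the closest 6383 bp from its TSS. That closest region was weak, with a lowest brain fold of 2.0 and peaks in adipose tissue of P348 and liver of P350. The region 33865 bp away had a lowest fold of 2.26 and a peak in lung of P350. The region 17156 bp from the TSS had folds of 3.19 and 4.93 in cerebellum, 7.22 and 7.56 in cortex and 7.17 and 7.57 in hypothalamus, with no peak in any other library. The region 42273 bp away had 2.67 and 2.84 in cerebellum, 4.96 and 5.54 in cortex and 5.02 and 7.18 in hypothalamus. In both, the folds in cerebellum were the lowest of the 3 tissues in each animal.

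Near PDGFRA, a receptor of oligodendrocyte precursors, 3 intergenic regions lay 188693 to 206002 bp from its TSS within 19.8 kb, each with a peak of 1 animal in at least 1 other tissue. FEZ1, which encodes a protein of axon outgrowth and transport, had 3 regions within 60.6 kb. The one 14774 bp from its TSS overlapped an exon, had no peak elsewhere and had folds of 4.30 and 9.67 in cerebellum, 11.77 and 11.05 in cortex and 11.63 and 12.47 in hypothalamus. MEIS2, a homeodomain transcription factor gene, had 3 intronic regions within 32.4 kb, with lowest folds of 2.30, 2.60 and 2.81. In a gene desert 791862 to 844036 bp from the TSS of PCDH17, a protocadherin gene, 3 regions lay within 53.0 kb, 2 of them without a peak elsewhere. Among genes with 3 or more regions, CSRNP3 had the highest share of its open regions in this set, 3 of 20 (15%), followed by NRXN2 (10.0%), SLC35F1 (9.84%), MAP2 (9.38%) and MCTP2 (9.30%), an order also drawn up after the counts were seen.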
